A study of Mus musculus with 8 samples.

Results

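Cytochrome P450 enzymes of families 1 to 4 were examined in the mouse proximal large intestine, as every gene of the deposited table whose symbol has the form Cyp, a family digit from 1 to 4, 1 letter and a number. The rule found 63 genes of 17041, in 19 subfamilies. Of these, 27 averaged at least 10 across the 8 libraries and were tested, and 36 lay below it. Cyp2ab1, also of family 2, has 2 letters after the family digit, so the rule leaves it out.

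All 8 mice were ApoE knockouts, an atherosclerosis-prone strain, raised germ-free, given bacteria by gavage at 8 weeks and dissected at 26 weeks of age. The core group (3 mice) carried a community that makes no butyrate, and the core plus R. intestinalis group (5 mice), called the Roseburia group from here on, carried the same community with Roseburia intestinalis, a butyrate producer. The comparison asks how adding this bacterium alters gene expression in the intestine. No source used here gives the diet, sex, cage or isolator of a mouse, so mice of a group could share one, and p-values measure only the spread between these samples. Values are the authors' normalized signal per gene, scaled between libraries and not per gene length, and group values are mean ± SD (core, n = 3; Roseburia, n = 5). Differences are Roseburia minus core on the log2(value + 1) scale, which understates changes of low genes.

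P450s are heme enzymes of the endoplasmic reticulum that insert an oxygen atom into their substrate, with electrons handed over by P450 reductase (Por). Families 1 to 3 are best known for clearing drugs, pollutants and plant compounds, and many members of families 2 and 4 also oxidise fatty acids such as arachidonic acid and leukotrienes. In the gut wall the enzymes sit mostly in epithelial cells, and nuclear receptors and the aryl hydrocarbon receptor control many of their genes.

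The estimated depth ran from 4597893 to 15352045 reads per library, and 1 read was worth a value of 0.457 in the deepest library and 1.59 in the shallowest. Colon epithelial markers were read in every library (10 of 10, summed level 190640 to 410794 in core and 248758 to 404372 in Roseburia). Hepatocyte markers (6 of 6) summed to 458 to 606 in core and 476 to 742 in Roseburia libraries, mostly from Tat (232 to 524) and Ttr (46.4 to 207), with Alb between 10.2 and 46.6 and Fgb at 0 to 3.44. Fibroblast markers (6 of 6) summed to 7773 to 8921 in core and 4614 to 6994 in Roseburia libraries, ranges that did not overlap. As single genes, Col1a2 and Col3a1 did not overlap, while Col1a1, Pdgfra, Dcn and Lum did. Of all genes tested, 5.84% had groups that did not overlap. Smooth muscle markers (5 of 5) summed to 113619 to 159425 in core and 76817 to 131409 in Roseburia libraries, and the part of both lists in the differences between communities was not tested. Pieces of gut differed within each group: Hoxb13, a homeobox gene of the distal colon, read 141, 439 and 25.3 in core replicates 1 to 3, and 247, 2.16, 394, 8.26 and 663 in Roseburia replicates 1 to 5. Core replicate 3 and Roseburia replicates 2 and 4 are called the low-Hoxb13 libraries here, a split at 100 made with these values known. The other distal colon markers followed it in part. Hoxa13 was lowest in the same libraries (6.47 to 28.7 against 44.4 to 174). Hoxd13 read 4.59, 2.16 and 1.18 in them but only 0.67 in Roseburia replicate 1, which had high Hoxb13. Prss22 lay between 0 and 2.39.

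The Cyp2c genes, which held the largest mean share of the P450 signal, are shown first by sequence. Their order on the chromosome is Cyp2c55, Cyp2c65, Cyp2c66, Cyp2c29, Cyp2c38, Cyp2c67, Cyp2c68, Cyp2c40, Cyp2c69, Cyp2c50, Cyp2c70 and Cyp2c44 for the 12 in the table. It is taken from RefSeq (assembly GRCm38.p6), with other genes between some of them, and distances were not compared. Of 63 genes, 50 had a RefSeq promoter of 250 bases before to 50 after the start. The letters CAAAGTCCA, a form of the site of the intestinal and liver nuclear receptor HNF4, stood on either strand in 7 of these 50 promoters (14.0%) and in 129 of 27025 promoters of all genes (0.48%). Of the 7, 6 were Cyp2c genes (11 had a promoter) and the other was Cyp3a11. Among the 23 tested genes with a promoter, 3 had these letters. Cyp2c67, Cyp2c68, Cyp2c40 and Cyp2c69 were 91.3% to 100% identical to each other over the stretches below, so the share counts near copies more than once. The stretches around the match are shown for the 4 genes next to each other, for Cyp2c65 and for Cyp2c70, with the match in capitals and 30 bases on each side, because Cyp2c65 went one way among the libraries and Cyp2c68 and Cyp2c69 the other; Cyp2c67, Cyp2c40 and Cyp2c70 lay below a mean of 10 and were not tested.
Cyp2c65: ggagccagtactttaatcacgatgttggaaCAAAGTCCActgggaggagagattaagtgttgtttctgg
Cyp2c67: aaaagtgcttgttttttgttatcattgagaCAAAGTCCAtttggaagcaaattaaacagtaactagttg
Cyp2c68: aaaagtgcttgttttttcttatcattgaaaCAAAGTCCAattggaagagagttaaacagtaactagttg
Cyp2c40: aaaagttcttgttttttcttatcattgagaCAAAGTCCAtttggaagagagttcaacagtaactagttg
Cyp2c69: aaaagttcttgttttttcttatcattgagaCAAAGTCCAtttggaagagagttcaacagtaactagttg
Cyp2c70: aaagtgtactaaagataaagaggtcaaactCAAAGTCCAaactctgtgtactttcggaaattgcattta

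The build of these stretches is GRCm38.p6, not the mm9 build named for the deposited values. They lie at chr19:39060860-39060928 on the plus strand (Cyp2c65), and on the minus strand at chr19:39649129-39649197 (Cyp2c67), chr19:39741140-39741208 (Cyp2c68), chr19:39812821-39812889 (Cyp2c40), chr19:39886806-39886874 (Cyp2c69) and chr19:40187312-40187380 (Cyp2c70). The match began 116 bases before the annotated start in Cyp2c65, 77 in Cyp2c68 and 75 in Cyp2c69. Cyp2c40 and Cyp2c69 were identical at 69 of 69 positions, Cyp2c68 and Cyp2c69 at 65, and Cyp2c65 and Cyp2c68 at 38. Cyp2c55 and Cyp2c66 had no match to these letters in the window, which says nothing of whether the receptor binds there. Other letters were searched in the 23 tested genes that had a promoter: TTTATNG, a form of the CDX site, stood in 2 (11.29% of all promoters), GCGTG, the core of the aryl hydrocarbon receptor site, in 6 (32.46%), TATAAA in 9 (14.16%), AGGTCA, the core of many nuclear receptor sites, in 2 (16.04%) and the HNF1 consensus in 0 (0.06%). All were searched on both strands, and a match is a description of the letters only.

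Of the summed member signal per kilobase of transcript, Cyp2c genes held 48.4%, Cyp2d genes 19.4%, Cyp4f genes 15.4%, Cyp3a genes 7.68% and Cyp4b1 3.89%, computed from each gene's mean over the 8 libraries. Library by library, and among the 27 tested genes only, the Cyp2c share ran from 29.2% to 58.5%. In core replicate 2, where it was lowest, Cyp2d genes held 29.99%. The highest mean level per kilobase was that of Cyp2c55 (3119 per kilobase), followed by Cyp2c65 (2193), Cyp4f14 (1274), Cyp2d34 (1146) and Cyp3a13 (922). Cyp2c55 was the highest in 7 of 8 libraries, and in core replicate 2 it stood at 856 per kilobase, below Cyp4f14 (1143) and Cyp2d34 (1130). Lengths are those of the longest coding transcript in GENCODE M21, to which 63 of 63 symbols could be matched. Several subfamilies were barely read. Cyp1a1, the standard target of the aryl hydrocarbon receptor, was listed at 0 in 6 of 8 libraries and reached 1.15 at most, and Cyp1b1 lay between 0.91 and 6.89. None of the 4 Cyp2b genes, 3 Cyp2a genes or 6 Cyp4a genes, the last known as PPAR-alpha targets in liver, reached a mean of 1 over the 8 libraries. Of the 36 genes below a mean of 10, 23 had a mean under 1, 10 were read in 1 library only, and the highest single value was 18.9 (Cyp2c67, Roseburia replicate 5). Counting all 63 genes without the filter, groups did not overlap in 3 (5.06% of 17041 genes): Cyp2s1 and, at the level of 1 to a few reads, Cyp3a44 and Cyp2a12, picked after their values were seen. Cyp3a44 was listed at 0 in the 3 core libraries and at 0.67 to 3.71 in the Roseburia libraries, and Cyp2a12 at 1.06 to 1.59 in core and 0 to 0.46 in the others.

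**Figure D1:**
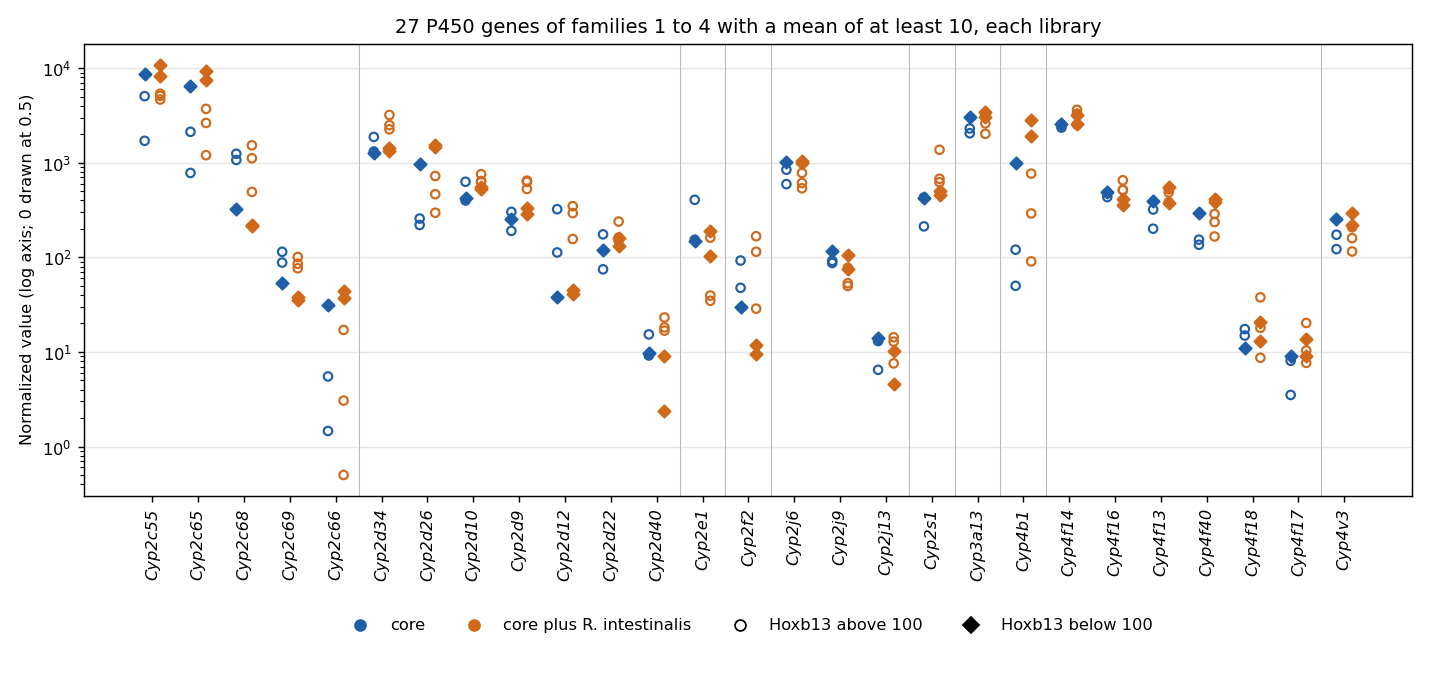
Normalized value (log axis) of the 27 tested genes in each library, by subfamily, with core in blue (n = 3) and Roseburia in orange (n = 5); filled diamonds are the libraries with Hoxb13 below 100, and a value of 0 is drawn at 0.5. Cyp2c55 and Cyp2c65 reach 10953 and 9446, and in Cyp4b1 and Cyp2d26 the diamonds lie above the open circles of the same group.

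Between the communities, 20 of the 27 tested genes had a higher mean log2 value with R. intestinalis (74.1%, against 49.6% of the 13020 genes tested), and the median difference of the 27 was 0.28 (−0.003 over all genes tested). The 20 include Cyp4f17 (means 6.91 and 12.2), which reached a mean of 10 only through the Roseburia libraries. Cyp2j13 (means 11.1 and 9.9), on the other side of 0, reached it only through core. None passed the threshold: with limma, 0 of 27 had an adjusted p below 0.05 (smallest 0.588), and 0 of 13020 genes did (0% called). At an unadjusted p below 0.05 there were 4 of 27 genes (14.8%, against 8.13% of all genes tested), with 3 higher (Cyp2d9, Cyp2s1 and Cyp4f13, where 4.44% of all genes were higher) and 1 lower (Cyp2e1). The count rested on single libraries, with 0 without core replicate 1 (2.07% of all genes tested), 7 without core replicate 3 (7.67%) and 7 without Roseburia replicate 5 (6.29%). The authors' deposited table gave none of the 63 genes a posterior probability of differential expression of at least 0.95 (0.481% of all genes had one), and the highest were 0.2 for Cyp4f13 and 0.18 for Cyp2d9.

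Cyp2s1, an extrahepatic P450 of epithelia known to metabolise retinoic acid and prostaglandin intermediates, read 213, 430 and 428 in core replicates 1 to 3. In Roseburia replicates 1 to 5 it read 1374, 453, 623, 498 and 677. Every Roseburia library was above every core library, by a narrow margin in replicate 2 (453 against 430), and replicate 1 was the highest. The group means were 357 ± 125 and 725 ± 374, and the log2 difference was 0.97 (SE 0.356, limma adjusted p = 0.588), or 0.63 without core replicate 1. It was the only 1 of the 27 genes with groups that did not overlap, where 5.84% of all genes tested had such groups (2.53% higher and 3.31% lower). That count was 5 without core replicate 2 (19.8% of all genes tested), 4 without core replicate 3 (13.5%), 3 without Roseburia replicate 2 (13%) and 2 without its replicate 5 (7.3%), and it stayed at 1 without any of the other 4 libraries.

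Cyp2d9, a member of the subfamily that hydroxylates steroids and many drugs, read 191, 303 and 257 in core replicates 1 to 3. In Roseburia replicates 1 to 5 it read 529, 290, 629, 329 and 648. Replicates 1, 3 and 5, which have Hoxb13 above 100, stood far above core, while the low-Hoxb13 replicates 2 and 4 lay near its upper end. The means were 250.1 ± 56.4 and 485 ± 167, and the log2 difference was 0.90 (SE 0.289, limma adjusted p = 0.588). All 7 tested Cyp2d genes had a difference above 0, and 0 passed the test. Cyp2d34, the subfamily's most abundant gene, read 1317, 1877 and 1276 in core and 3205, 1451, 2260, 1322 and 2504 in Roseburia libraries, so the groups overlapped (log2 difference 0.47, SE 0.281, or 0.31 without Roseburia replicate 1). Among the others the difference ran from 0.02 (Cyp2d40) to 0.97 (Cyp2d26). The genes are near copies of each other: 40.5% of the 50-base windows of Cyp2d10, 29.0% of those of Cyp2d9 and 13.7% of those of Cyp2d34 occur in another gene's transcripts, so the split of reads among them is uncertain.

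Cyp4f13 belongs to the leukotriene and fatty acid omega-hydroxylases and read 201, 321 and 396 in core replicates 1 to 3. It read 527, 549, 487.5, 372 and 383 in Roseburia replicates 1 to 5, of which replicates 4 and 5 lay inside the core range. The means were 306 ± 98.1 and 464 ± 81.6, and the log2 difference was 0.64 (SE 0.227, limma adjusted p = 0.588), or 0.36 without core replicate 1. Differences were above 0 in 6 of 6 tested Cyp4f genes and 0 passed. Cyp4f14, the family 4 gene with the highest level, read 2356, 2538 and 2549 in core and 3634, 2559, 3299, 3169 and 2535 in Roseburia libraries (log2 difference 0.28, SE 0.145). Its replicate 5 fell below 2 core libraries, so the groups overlapped. Cyp4f16 had a difference of 0.05, Cyp4f40 of 0.62 and Cyp4f18, a leukotriene hydroxylase of leukocytes, of 0.28 at means of 14.4 and 19.6. Cyp4f17 had the largest, 0.75, at means of 6.91 and 12.2. It reached a mean of 10 over all libraries only through the Roseburia libraries, so the filter favoured its direction. Cyp4f16 shares 26.5% of its windows with other genes, chiefly Cyp4f37.

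Cyp2e1, which oxidises ethanol, acetone and fatty acids and is also read in fat, read 406, 153 and 150 in core replicates 1 to 3. It read 39.5, 103, 162, 189 and 34.8 in Roseburia replicates 1 to 5. Core replicate 1 was far above every other library, and replicates 1 and 5 of the other group were far below, while the remaining 5 libraries lay close together. The means were 237 ± 147 and 105.5 ± 69.7, and the log2 difference was −1.30 (SE 0.586, limma adjusted p = 0.588). It was −0.83 without core replicate 1 and −2.02 in the 5 libraries with Hoxb13 above 100. Adipoq, the adipocyte hormone adiponectin, was 452, 131 and 224 in core and 24.0, 73.3, 100 and 207 in Roseburia replicates 1 to 4, with 24.3 in replicate 5, so the same library was highest and the same 2 were lowest. Cfd, Fabp4, Lep, Retn and Car3 also had these ends. Cidec had the same 2 lowest but was highest in Roseburia replicate 4 (247, against 221 in core replicate 1), and Plin1 (1.83 to 10.6) did not share these ends. All 8 adipocyte markers were in the table, with a summed level of 1777 to 4531 in core and 483 to 2605 in Roseburia libraries. Their part in the Cyp2e1 difference was not tested, and in bulk samples fewer cells of a type and less RNA per cell cannot be told apart.

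**Figure D2:**
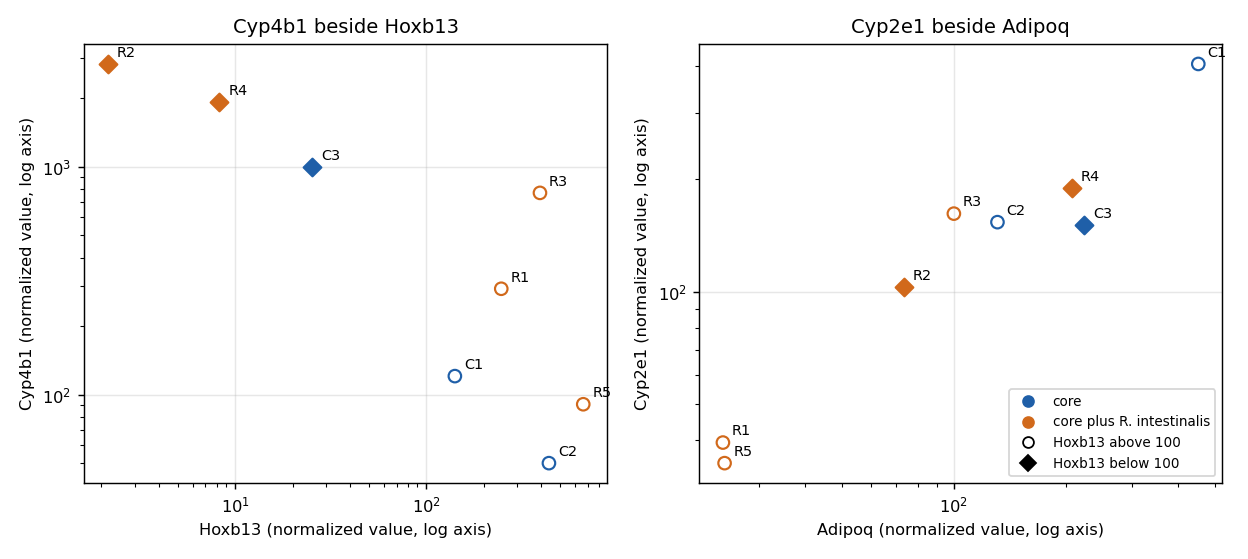
Left, Cyp4b1 against Hoxb13, and right, Cyp2e1 against Adipoq, as normalized values on log axes, 1 point per library (C1 to C3 core, R1 to R5 Roseburia; filled diamonds, Hoxb13 below 100). The 3 lowest Hoxb13 libraries have the 3 highest Cyp4b1 values, and R1, R5 and C1 are the ends of both axes on the right.

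In 11 of the 27 tested genes these 3 libraries were the 3 highest (8 genes) or the 3 lowest (3 genes) of the 8. Over all genes tested this was the case for 11.8% (6.18% highest and 5.61% lowest), against 40.7% of the 27. The 8 were Cyp2c55, Cyp2c65, Cyp2c66, Cyp2d26, Cyp2j6, Cyp4b1, Cyp4f40 and Cyp4v3, and the 3 were Cyp2c68, Cyp2c69 and Cyp2d12. No group of mice is compared by this split, which rests on a measured gene, and the share is a description. Of the small intestinal markers, Sis, the brush border sucrase, read 580, 945 and 1370 in these 3 libraries and 11.4 to 429 in the others, and Slc10a2, the bile acid transporter of the ileum, 510, 818 and 949 against 13.9 to 414. The rest of that list did not follow the split. Alpi (296) and Fabp2 (6700) were highest in Roseburia replicate 1, and Mttp (47.1) in its replicate 3. Fabp6 in Roseburia replicate 3 (130) was above core replicate 3 (126) and Roseburia replicate 2 (67.9), and Apoa4 lay between 0 and 7.08. Of the colon markers, the carbonic anhydrase Car1 was highest in the 3 low-Hoxb13 libraries and the water channel Aqp8 was lowest (47.4 to 344 against 1255 to 2866), as were Car4 and Slc26a3. The rest of the colon list (Epcam, Vil1, Krt8, Krt20, Muc2 and Lgals4) did not follow the split. Muc2 was highest in Roseburia replicate 1 (243421) and Lgals4 in core replicate 1 (41614). The part of these markers in the result was not tested, and the labels give no position along the gut for any piece.

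Among the 5 tested Cyp2c genes, 3 were highest and 2 lowest in the low-Hoxb13 libraries. Cyp2c55, an arachidonic acid hydroxylase known from colon and the most abundant gene of the set, read 5070, 1708 and 8648 in core and 5111, 10953, 4669, 8245 and 5376 in Roseburia libraries (log2 difference 0.62, SE 0.460, limma adjusted p = 0.635). Cyp2c65, its neighbour, read 2127, 782 and 6475 in core and 2640, 9446, 3719, 7437 and 1204 in Roseburia libraries. In both genes core replicate 3 and Roseburia replicates 2 and 4 stood above the rest, and core replicate 2 was lowest. Without core replicate 2 the Cyp2c55 difference was −0.03. Cyp2c66 followed at low values (0 to 43.7), although it shares 24.0% of its windows with other genes, all with Cyp2c65.

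Further along the cluster, Cyp2c68 read 1071, 1247 and 327.5 in core and 492, 215, 1118, 219 and 1531 in Roseburia libraries. The same 3 libraries were now the lowest. Cyp2c69 lay between 54.2 and 115 in core, and between 35.8 and 101 in Roseburia libraries, with the same 3 lowest, but 54.8% of its windows and 43.3% of those of Cyp2c68 occur in other genes, mostly Cyp2c40. The ratio of Cyp2c55 to Cyp2c68 was 26.4, 50.9 and 37.6 in the low-Hoxb13 libraries (core replicate 3 and Roseburia replicates 2 and 4). In the other 5 it was 4.73, 1.37, 10.4, 4.18 and 3.51. With Cyp2c55 highest and Cyp2c68 lowest in the same 3 libraries, the ratio had to separate them and only restates that. Together Cyp2c55, Cyp2c65 and Cyp2c66 held 53.0% to 57.7% of the tested P450 signal per kilobase in the low-Hoxb13 libraries and 18.0% to 42.3% in the others. The HNF4-type letters stood in genes of both patterns, Cyp2c65 on one side and Cyp2c68 and Cyp2c69 on the other. Neither Cyp2c68 (log2 difference −0.53, SE 0.686) nor Cyp2c69 (−0.39, SE 0.388) passed the test between communities.

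**Figure D3:**
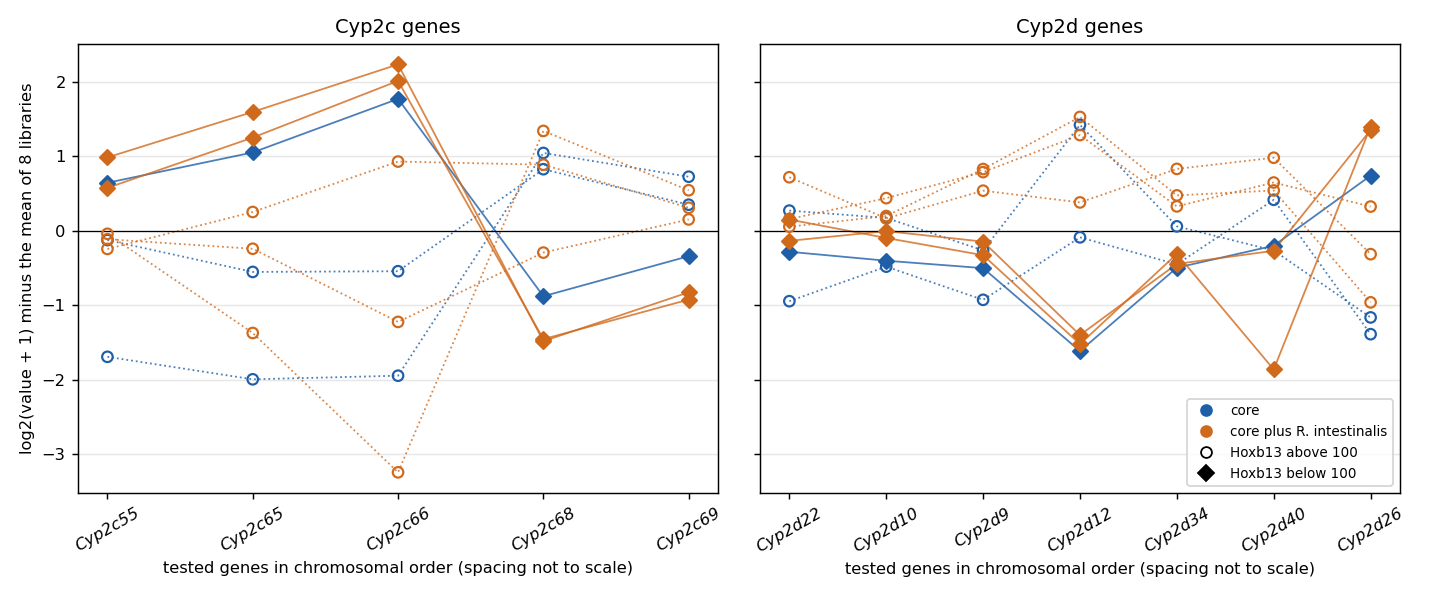
Deviation of log2(value + 1) from the mean of the 8 libraries for the tested Cyp2c genes (left) and Cyp2d genes (right) in chromosomal order, spacing not to scale; blue is core, orange Roseburia, and filled diamonds with solid lines are the libraries with Hoxb13 below 100. The diamonds are on top for Cyp2c55, Cyp2c65, Cyp2c66 and Cyp2d26 and at the bottom for Cyp2c68, Cyp2c69 and Cyp2d12.

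Of the 7 tested Cyp2d genes, 1 (Cyp2d26) was highest and 1 (Cyp2d12) lowest in the low-Hoxb13 libraries, and the other 5 were neither. Cyp2d26, at the end of the Cyp2d row, read 220, 257 and 967 in core and 465, 1529, 725, 1479 and 296 in Roseburia libraries. Cyp2d12, which lies in the middle of the row, read 113, 323 and 38.4 in core and 156, 41.1, 294, 44.8 and 348 in Roseburia libraries. The low-Hoxb13 libraries had ratios of Cyp2d26 to Cyp2d12 of 25.2, 37.2 and 33.0, and the other 5 lay between 0.797 and 2.97. As 1 gene was highest and 1 lowest in the low-Hoxb13 libraries, their ratio had to separate them and only restates that. Of the windows of Cyp2d26, 10.54% occur in other genes, and 17.9% of those of Cyp2d12.

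Cyp4b1 activates furans and hydroxylates short fatty acids. Of the tested P450 genes with a mean of at least 50, it had the largest ratio of highest to lowest value. It read 121, 50.03 and 998 in core and 292, 2834, 769, 1927 and 90.8 in Roseburia libraries. The means of 389 ± 528 and 1183 ± 1166 had SDs of about their own size, and the log2 difference of 1.82 (SE 1.16, limma adjusted p = 0.610) was 0.89 without core replicate 2 and 3.04 without core replicate 3. Cyp3a13, the only well-read gene of the subfamily that handles most drugs, read 2308, 2053 and 3046 in core and 2609, 3466, 3269, 3027 and 2025 in Roseburia libraries. The groups overlapped (log2 difference 0.22, SE 0.195, from 0.09 without core replicate 2 to 0.38 without core replicate 3).

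Cyp2j6, a gut and liver epoxygenase of arachidonic acid, read 845, 595 and 1025 in core and 611, 1048, 782, 1004 and 538 in Roseburia libraries. The 2 groups covered the same range, and the log2 difference was −0.06 (SE 0.252). The other tested Cyp2j genes were below 0 as well, Cyp2j9 at −0.48 (98.8 ± 16.01 and 72.4 ± 22.5) and Cyp2j13 at −0.18 (means 11.1 and 9.9, so it reached 10 only through core). Cyp2f2, known from lung and its bioactivation of naphthalene, read 47.6, 92.6 and 29.9 in core and 28.7, 11.9, 115, 9.44 and 167 in Roseburia libraries (log2 difference −0.46, SE 0.881, although the mean was higher in Roseburia, 66.4 ± 71.02 against 56.7 ± 32.3). Cyp4v3, a fatty acid omega-hydroxylase, read 122, 174 and 255 in core and 116, 294, 209, 221 and 160 in Roseburia libraries (0.12, SE 0.311). In neither did the groups differ beyond their spread.

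With log2 Hoxb13 as a covariate more genes had a small p. Then 10 of 27 genes had an unadjusted p below 0.05 (37%, against 18.4% of all genes tested), 8 higher (10.7% of all genes were) and 2 lower, and by limma 0 had an adjusted p below 0.05 (smallest 0.197). The 8 were Cyp2d9, Cyp2d34, Cyp2d10, Cyp2d26, Cyp2s1, Cyp4b1, Cyp4f13 and Cyp4f40, and the 2 were Cyp2e1 and Cyp2j9. Cyp2d9 had the fourth smallest p of the 13020 genes, with a log2 difference of 1.00 (SE 0.168, limma adjusted p = 0.197). This rank depended on the fit: it was 166 without the covariate, 45 with the low-Hoxb13 libraries as a term and 9 in the 5 libraries with Hoxb13 above 100. Cyp2d34 had a difference of 0.57 (SE 0.161) where the fit without the covariate gave an SE of 0.281. Hoxb13 is a gene of the same libraries and not a recorded position, and with 8 libraries the covariate takes 1 more degree of freedom.

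The same comparison within the 2 kinds of library gave values without a test, since only 1 core library had low Hoxb13. In 18 of 27 genes the mean was higher with R. intestinalis both among the 5 libraries with Hoxb13 above 100 and among the 3 below it (66.7%, against 30% of all genes tested). Cyp4f17, which reached a mean of 10 only through the Roseburia libraries, is among the 18. Groups did not overlap, and were higher, in both kinds for Cyp2d9, Cyp2d26, Cyp2d34, Cyp2s1 and Cyp4f40 (5 of 27, or 18.5%, against 7.46% of all genes tested), and lower in both for Cyp2j9 (1 of 27, against 8.62%). Cyp2d26 had log2 differences of 0.96 and 0.64 in the 2 kinds, and Cyp2s1 of 1.46 and 0.15. Fitted to the 5 libraries alone, 8 of 27 genes had an unadjusted p below 0.05 (15% of all genes tested), 7 of them higher (9.6%), and 0 passed by limma (smallest adjusted p = 0.277). With the low-Hoxb13 libraries as a term the count was 10 (14.4% of all genes tested; 8.41% were higher).

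**Figure D4:**
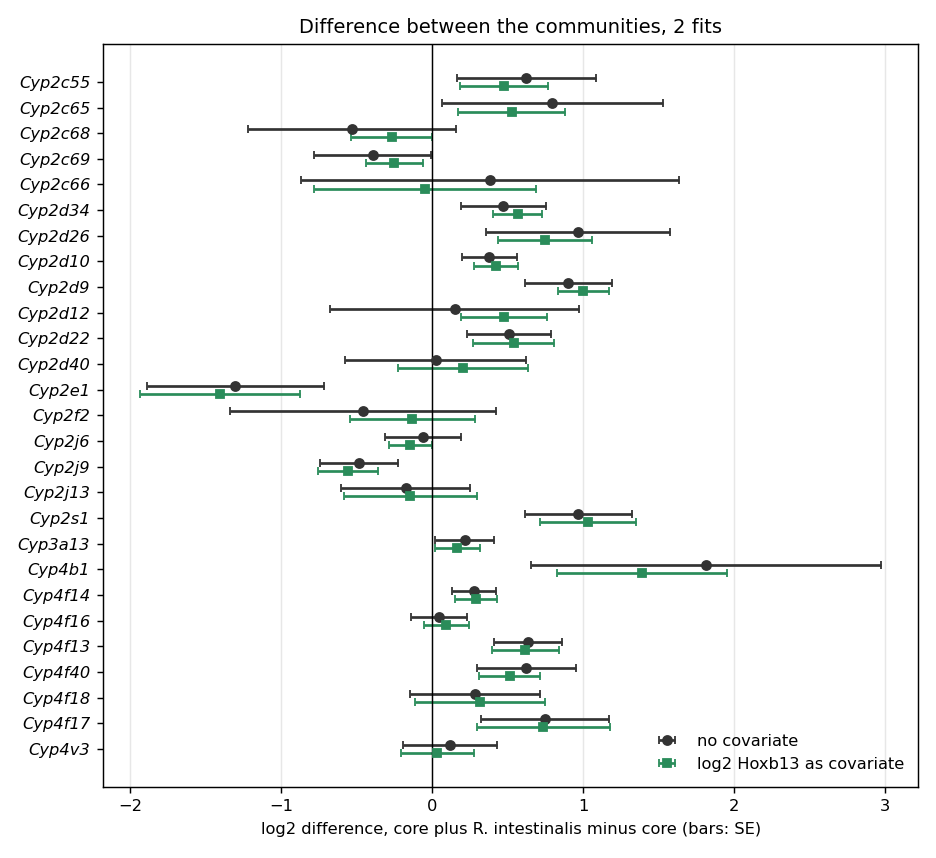
Log2 difference, Roseburia minus core, with its standard error for the 27 tested genes, without a covariate (dark circles) and with log2 Hoxb13 as a covariate (green squares). Cyp2d9 stands at 0.90 and 1.00 with SEs of 0.289 and 0.168, Cyp2e1 is lowest and Cyp4b1 highest, and no gene passed the adjusted threshold in either fit.

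Of the regulators and redox partners of P450s, 28 genes of a list were in the table and 27 were tested. Their difference was above 0 in 22 of 27 (49.6% of all genes tested), with a median of 0.19 (−0.003 over all genes tested). None passed (limma, 0 of 27 with an adjusted p below 0.05, smallest 0.588). At an unadjusted p below 0.05 there was 1 of 27, Por, higher, against 8.13% of all genes tested (4.44% higher). Por, the reductase that supplies electrons to every member described here, read 163, 241 and 233 in core and 831, 251, 380, 354 and 459 in Roseburia libraries. Its groups did not overlap, the only such gene of the 27 (5.84% of all genes tested), and replicate 1 was far above the others. The means were 212 ± 42.5 and 455 ± 223, and the log2 difference was 1.00 (SE 0.324, limma adjusted p = 0.588). Alas1, the first enzyme of heme synthesis, had a difference of 0.42, the partner of the aryl hydrocarbon receptor family Arnt2 one of 0.69 at means of 10.7 and 18.5, and the outer mitochondrial cytochrome b5 Cyb5b one of 0.24.

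Values of the receptors overlapped between the groups. Ahr, the aryl hydrocarbon receptor, lay between 77.9 and 89.5 in core and 77.9 and 104 in Roseburia libraries. Nr1i2, the drug-sensing receptor PXR, lay between 613 and 678 and between 602 and 781. Hnf4a, the HNF4 gene of gut and liver, lay between 2896 and 3463 and between 2704 and 5641, with Roseburia replicate 1 at the top. The low-Hoxb13 libraries were its 3 lowest (2896, 2736 and 2704), with 3044 or more in the others, as in 5.61% of all genes tested. Its part in the Cyp2c values was not tested. None of these 3 receptors passed the test between communities.

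Of the other P450 genes (19 in the table, families 5 and above, Tbxas1, Ptgis and Cyp2ab1), 8 were tested. By limma 0 passed and 0 had an unadjusted p below 0.05 (8.13% of all genes tested). Cyp26b1, a retinoic acid hydroxylase, had a difference of 0.85 at means of 7.16 and 14.1, so it was tested only through its higher values in the Roseburia libraries. Cyp27a1, a sterol hydroxylase of the mitochondrion, had one of 0.43 at means of 228 and 318. Cyp7b1 (−0.34) and Cyp39a1 (−0.22), both oxysterol hydroxylases, were on the other side of 0. Over the tested genes of this list the difference was above 0 in 4 of 8 (49.6% of all genes tested), with a median of −0.04 (−0.003 over all genes tested).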

How the data were processed

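Libraries of stranded mRNA (Illumina TruSeq) came from frozen proximal large intestine, 1 per sample, per the labels' protocols. Bowtie2, RSEM 1.2.23 and the build mm9 are listed, without role or order, per the submitters' processing notes. For the annotation, gene filter, normalization method and the tool behind the authors' posterior probabilities, nothing is given in the sources used here. Per the file headers, the authors' deposited table gives a normalized expression signal per gene and library, a score (posterior probability of differential expression) and a linear ratio (fold change). Low values clustered on 1 step per library (79.9% to 84.5% of values under 30, tolerance 0.05 of a step), which gave the depth; whole reads were not assumed. Intervals from counting were therefore not computed.

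Genes with a mean of at least 10 (13020) were tested as log2(value + 1) with limma 3.58.1 in R 4.3.3 (mean-variance trend) over all 8 libraries, with Benjamini-Hochberg adjustment over all genes tested and a threshold of 0.05. The script was tested on simulated data. Every library's value is given for genes with groups apart or an unadjusted p below 0.05 and for the most abundant tested gene of each subfamily; the other Cyp2c and Cyp2d genes given this way were picked after their values were seen. From the 2 accompanying lists the 4 smallest p-values were named; receptors named beside them were picked afterwards. Members, lists and tests were chosen with earlier results of these data known. The share of 50-base windows found in other genes used GENCODE M21 transcripts, a build other than mm9. Tried as alternatives were 0.5 and 5 as pseudocount, a filter at a mean of 50 or none, trimmed-mean and quantile scaling, no trend, a replicate block, a Hoxb13 covariate and each library left out; a Hoxb13 term (split at 100) and the 5 libraries above it were added after seeing the data.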

Additional observations from a re-analysis of the deposited data

How the results depend on the processing

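By limma, 0 of the tested members passed the adjusted threshold under any alternative tried, and over all genes the count was 0, except 1 without core replicate 1. Of 228 values of the 12 fully described members under the alternatives, 220 kept their sign. The members with an unadjusted p below 0.05 (4) became 10 with log2 Hoxb13 as a covariate, 10 with the 3 low-Hoxb13 libraries as a term and 8 in the 5 other libraries, and ranged from 0 to 7 with a library left out. Members with groups that did not overlap (1) became 3 of 63 without a filter, where 5.06% of 17041 genes did not overlap. In the 5 libraries with Hoxb13 above 100 they became 9 of 27 (33.3%, 8 higher), against 36.6% of all genes tested. With a library left out they ranged from 1 to 5. Taking libraries out narrows the ranges, so this count can stay or rise but not fall. The cause of the other changes was not tested. Cyp2f2 turned to 0.30 in the 5 libraries with Hoxb13 above 100. With a library left out, differences ran from −0.0272 to 1.14 for Cyp2c55, −0.996 to 0.0071 for Cyp2f2, −0.27 to 0.12 for Cyp2j6 and −0.14 to 0.38 for Cyp4v3. Scaling by trimmed mean or quantiles left 20 of 27 above 0. Deviations of same-numbered samples correlated at −0.12, −0.53 and −0.07, which showed no pairing by replicate number. The numbers are those of the sample titles, and the deposited library names number the core libraries otherwise. The pair at −0.53 joined libraries with Hoxb13 of 439 and 2.16, so these correlations cannot decide on a shared cage or batch. With the replicate block 3 members had an unadjusted p below 0.05 (3.03% of all genes tested). Groups that do not overlap were not defined for fits with a covariate or block. At a value of 10 a gene rested on 6.3 to 21.9 estimated reads.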
